A study of Mus musculus with 9 samples.

Results

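The circadian clock genes described here were Per1, Per2, Per3, Cry1, Cry2, Clock, Nr1d1, Nr1d2, Dbp and Tef, 10 of the 55416 genes in the deposited count table. They were found by the gene symbols given in the deposited table of scaled counts, from a list drawn up with earlier results of these data known. All 10 were among the 13679 genes that passed a filter on low counts and were tested. Transcripts were sequenced from MC3T3-E1, a wild type murine pre-osteoblastic line from calvarial bone that differentiates toward osteocyte-like cells, to compare an organic with an inorganic source of phosphate. All cultures were differentiated in αMEM, which itself holds phosphate, with 10% fetal bovine serum, 50 µg/mL ascorbic acid, 0.1 µM of the synthetic glucocorticoid dexamethasone and 10 mM β-glycerophosphate (BGP). The labels give this medium up to day 27, whereas the study's text takes BGP out of it for the last week. At day 27 the cells received 4 mM BGP, an organic phosphate, or 4 mM of a mixture of Na2HPO4 and NaH2PO4 (NaHPO4), an inorganic phosphate, for 16 h, or no added phosphate (Control), and each group had 3 libraries. Because a single line was harvested at a single time, the values are levels at that time and hold no rhythm, and the sources used here give no hour of the day for the harvest.

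The mammalian clock is a feedback loop of transcription. CLOCK and BMAL1 bind together to E-box sequences and switch on the Per and Cry genes, whose proteins return to the nucleus and repress CLOCK and BMAL1, and a further loop is formed by the REV-ERB repressors, encoded by Nr1d1 and Nr1d2, and the ROR activators, which act on the gene of BMAL1. The PAR bZIP factors DBP and TEF carry the rhythm to output genes through D-box sequences. The loop runs in most cell types, osteoblasts included, and in cultured cells it can be set in step by serum, by glucocorticoids and by signals that raise cAMP.

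Total counts lay between 21390839 and 28234404 per library. BGP replicate 1 was the lowest of the 9 libraries for Tef, Nr1d1, Nr1d2 and Cry2, and values without it are given where they change a result. All 13 osteoblast and osteocyte markers on the list, among them Runx2, Sp7, Alpl, Bglap and Dmp1, had a mean above 1 CPM (counts scaled to library size) in Control and BGP, and 12 did in NaHPO4, where Sost, which encodes the osteocyte protein sclerostin, was at 0.427 CPM against 1.39 CPM in Control. At an adjusted p below 0.05, 3 of these markers were higher and 0 lower in BGP than in Control (2 passed with DESeq2), against 2.53% of all tested genes, 1 was higher and 5 were lower in NaHPO4 than in Control, against 7.38%, and 7 were higher and 0 lower in BGP than in NaHPO4, against 5.38%. The marker higher in NaHPO4 than in Control was Dmp1, and those lower were Alpl, Col1a1, Bglap, Bglap2 and Sost. Dmp1 was at 76.0 ± 10.4 CPM (SD, n = 3) in Control and rose to 552 ± 41.8 CPM in BGP and 349 ± 30.3 CPM in NaHPO4. Of the adipocyte, skeletal muscle, macrophage and endothelial markers, Fabp4 alone exceeded 10 CPM and none of those tested passed in any comparison. Myod1, Myog, Itgam, Tyrobp, Kdr and Emcn had 0 counts and Adipoq at most 4. Of the 6 macrophage markers, 2 had a mean above 1 CPM in BGP and 0 did in Control or NaHPO4. Of the 6 skeletal muscle markers, 1 had a mean above 1 CPM in each group. Among the 6 chondrocyte markers, Col2a1 and Sox9 exceeded 10 CPM, and the summed level of the list was 249.7 to 308.2 CPM in Control, 340.9 to 447 CPM in BGP and 186.6 to 266.4 CPM in NaHPO4. Col2a1 rose in BGP (log2 fold change (log2FC) = 0.50, adjusted p = 0.000754) and fell by 0.45 on the log2 scale in NaHPO4 (adjusted p = 0.00141), where libraries overlapped. Neither call was kept with DESeq2. In BGP versus NaHPO4, 1 of the 4 tested chondrocyte markers passed, Col2a1, higher in BGP, against 5.38% of all tested genes. Of this list, 1 marker also passed there with DESeq2 and with limma. The part of these differences in the clock gene values was not tested.

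Levels of different genes can be compared only per length, so RPKM were computed from the counts and the exon length of each gene. This length joins the exons of all annotated transcripts, 17251 bases for Clock against 4978 for Cry1. Which transcripts were expressed was not determined. In CPM, Clock at 85.39 lay above Cry1 at 51.16 in Control, so the order below depends on the length used. Per1, a period repressor that also answers quickly to hormones and cAMP, was the most abundant clock gene in Control at 25.2 ± 0.440 RPKM (SD, n = 3). Cry1 at 10.3 ± 0.184 RPKM and Tef at 10.1 ± 0.778 RPKM followed, and their libraries overlapped. Clock came next at 4.95 ± 0.347 RPKM. Nr1d1 at 3.50 ± 0.140 RPKM and Cry2 at 3.35 ± 0.0689 RPKM overlapped with each other, and below them lay Nr1d2 at 3.06 ± 0.0774 RPKM and Per2 at 2.69 ± 0.276 RPKM. Per3 at 0.758 ± 0.120 RPKM and Dbp at 0.407 ± 0.0275 RPKM were the lowest. The libraries of all other neighbours in this order did not overlap. The order was not the same in BGP and NaHPO4, where genes in the middle of the range traded places, while Per1 stayed at the top and Per3 and Dbp at the bottom.

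**Figure D1:**
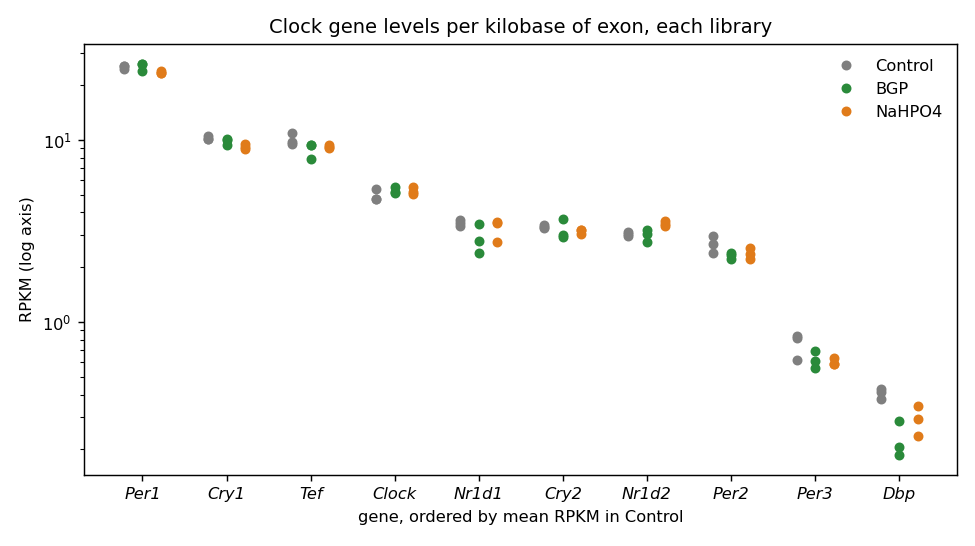
RPKM of the 10 clock genes on a log axis, with a point for each library of Control (grey), BGP (green) and NaHPO4 (orange), ordered by the mean in Control. Per1 lies highest, at 25.2 RPKM in Control, and Per3 and Dbp lie under 1 RPKM. The range over the genes is far wider than the differences between groups, while some neighbours lie as close as the groups do.

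The genes lie on 9 chromosomes of GRCm39, the build used by the authors: Per1 at chr11:68986035-69002300, Per2 at chr1:91343700-91387069, Per3 at chr4:151081373-151129140, Cry1 at chr10:84967560-85021252, Cry2 at chr2:92233894-92264474, Clock at chr5:76342860-76452846, Nr1d1 at chr11:98658752-98666188, Nr1d2 at chr14:4230545-4266624, Dbp at chr7:45354512-45359627 and Tef at chr15:81686622-81711064. Nr1d1 shares 52.3% of its exon bases with Thra, the thyroid hormone receptor gene on the opposite strand, so its counts are uncertain unless counting used strand. The libraries were made with a stranded kit, and the sources used here do not give the counting setting. Exon bases are shared with a gene on the opposite strand to a lesser extent by Dbp (15.5%, Sphk2), Clock (11.9%, Tmem165) and Tef (11.1%, Gm62928). Of the 50-base windows of Nr1d2, 4.09% also occur in other genes, mostly Gm15417, so that a small part of its reads could have been placed elsewhere. For the other clock genes this share was at most 0.111%.

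Promoter sequences, 250 bases before to 50 after a transcription start, were taken from RefSeq on GRCm38.p6, a build that differs from the one above. They matched 9 of the 10 clock genes, with 13 starts. The E-box CACGTG, to which CLOCK and BMAL1 bind, was found in 4 of the 13 promoters, those of Per1 (the first start), Cry1 and Tef (both starts), against 7.15% of all 32851 promoters in the table. The D-box, searched as TTATGTAA and TTACGTAA on both strands, was found in 1 of 13, that of Per3, which held TTATGTAA at 2 places, against 1.06% of all promoters. The RORE (AGGTCA or GGGTCA directly after AANT, 0.435% of promoters), the CRE (TGACGTCA, 1.79%) and the GRE (AGAACA and TGTTCT with 3 bases between them, 0.00913%), searched on both strands too, were found in 0 of the 13, and no matches overlapped. Other variants of these motifs, and sequence outside these promoters, were not searched. At shares this low, 0 of 13 does not show that the clock genes lack the RORE, the CRE or the GRE. The promoters of Cry1 and Nr1d2 are shown because these were the clock genes that passed the test in a comparison, that of Per1 as the most abundant gene, and that of Per3 for its D-boxes. Capitals mark the motifs, at -60 from the start in Cry1 (E-box), -166 in Per1 (E-box) and -205 and -158 in Per3 (D-box).
Cry1, chr10:85185005-85185304, minus strand: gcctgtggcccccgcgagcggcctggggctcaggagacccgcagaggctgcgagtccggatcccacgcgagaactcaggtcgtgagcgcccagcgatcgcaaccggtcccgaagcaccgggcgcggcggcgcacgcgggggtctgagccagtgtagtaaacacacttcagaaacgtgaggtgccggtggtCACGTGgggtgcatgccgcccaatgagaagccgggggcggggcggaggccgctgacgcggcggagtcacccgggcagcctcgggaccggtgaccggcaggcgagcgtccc
Nr1d2, chr14:18239057-18239356, minus strand: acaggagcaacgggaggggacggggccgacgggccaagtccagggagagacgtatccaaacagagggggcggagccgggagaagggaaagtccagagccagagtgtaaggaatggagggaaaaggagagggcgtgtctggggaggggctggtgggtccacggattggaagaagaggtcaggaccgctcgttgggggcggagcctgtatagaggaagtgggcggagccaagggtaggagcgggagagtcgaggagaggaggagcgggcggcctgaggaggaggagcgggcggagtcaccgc
Per1, first start, chr11:69098699-69098998, plus strand: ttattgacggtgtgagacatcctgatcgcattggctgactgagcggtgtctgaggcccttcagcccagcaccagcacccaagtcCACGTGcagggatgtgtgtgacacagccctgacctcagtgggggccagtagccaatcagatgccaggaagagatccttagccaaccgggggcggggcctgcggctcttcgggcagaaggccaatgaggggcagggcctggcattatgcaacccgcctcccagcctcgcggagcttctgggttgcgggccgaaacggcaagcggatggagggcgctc
Per3, chr4:151044616-151044915, minus strand: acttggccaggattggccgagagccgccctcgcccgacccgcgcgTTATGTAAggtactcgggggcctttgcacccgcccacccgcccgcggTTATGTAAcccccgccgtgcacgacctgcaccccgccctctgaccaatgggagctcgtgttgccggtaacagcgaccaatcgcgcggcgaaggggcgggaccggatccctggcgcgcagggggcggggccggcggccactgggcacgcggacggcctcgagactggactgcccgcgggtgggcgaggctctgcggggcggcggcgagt

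The 3 groups were compared in 1 model of the 9 libraries by edgeR's quasi-likelihood test, and p-values were corrected over the 13679 genes after Benjamini and Hochberg. Genes with an adjusted p (false discovery rate, FDR) below 0.05 were called changed, and those that also had an absolute log2FC above 0.5 were taken as differentially expressed genes (DEGs). No clock gene was a DEG in any of the 3 comparisons, against 0.556% of all tested genes for BGP versus Control, 0.716% for NaHPO4 versus Control and 0.585% for BGP versus NaHPO4. At the FDR alone, 0 of the 10 clock genes changed in BGP versus Control, where 2.53% of all tested genes passed. In NaHPO4 versus Control 1 of 10 passed, Cry1, which was lower in NaHPO4, against 7.38% of all tested genes and 3.95% lower. In BGP versus NaHPO4 1 of 10 passed, Nr1d2, which was lower in BGP, against 5.38% of all tested genes and 2.05% lower. In a list of 10, counts of 0 and 1 are not told apart from these shares. Both treatments were compared with the same 3 Control libraries, so the values of the first 2 comparisons are not independent of each other. The labels do not say that replicates were separate cultures, so the p-values measure only the spread between these libraries, and in bulk RNA fewer cells of a type and less RNA per cell cannot be told apart.

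**Figure D2:**
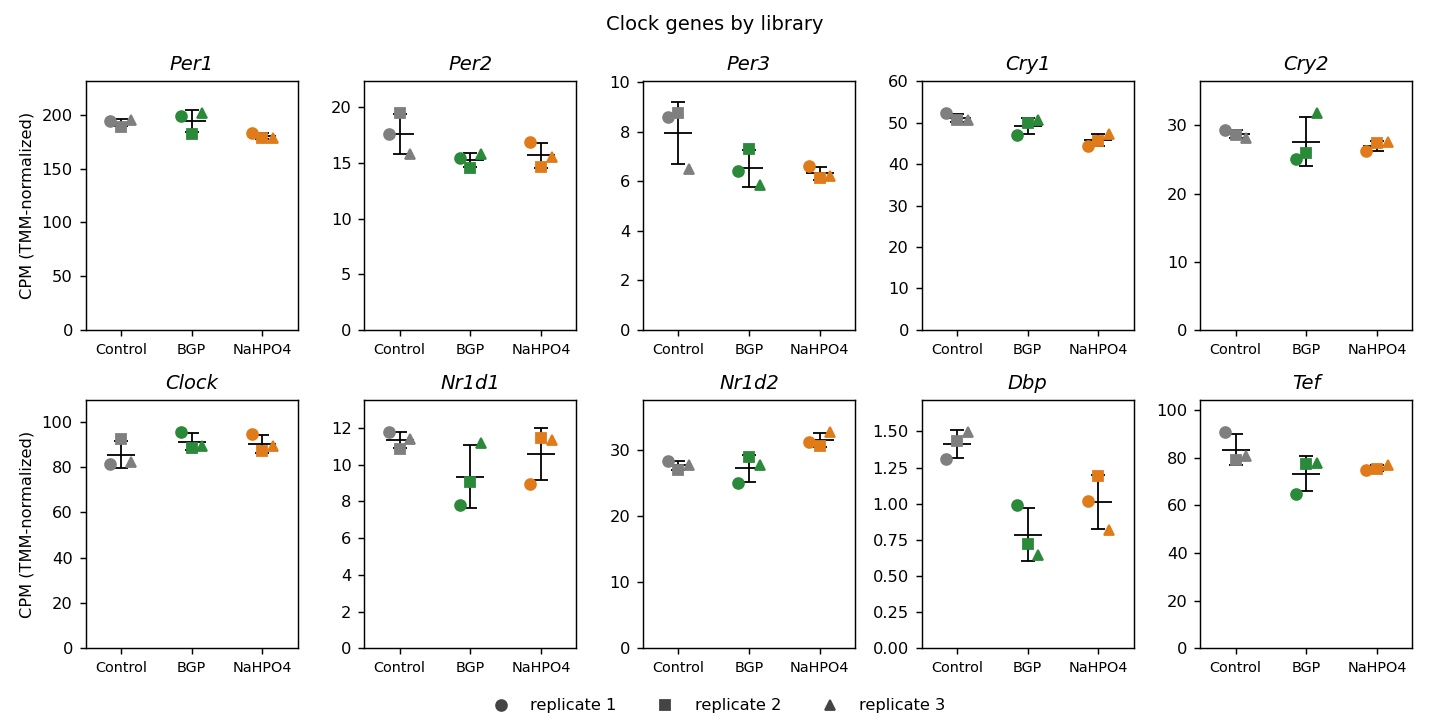
TMM-normalized CPM of the 10 clock genes in each of the 9 libraries, with linear axes from 0, the replicates as circles, squares and triangles, and the mean and SD of each group as black lines. Cry1 is lower in NaHPO4 than in Control and Nr1d2 is higher in NaHPO4 than in both other groups, with no overlap, and replicate 1 of BGP is the lowest library for Tef, Nr1d1 and Nr1d2.

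For BGP versus Control, the count of 0 by edgeR's quasi-likelihood test was also 0 by DESeq2 and was 1, Tef, by limma on the authors' scaled values. At an unadjusted p below 0.05 there were 6 clock genes, of which Per2, Per3, Nr1d1, Dbp and Tef had lower values in BGP and Clock had higher values, against 13.4% of all genes. The log2FC was below 0 for 8 of the 10 clock genes, against 51.6% of all tested genes, and its median was -0.12, against -0.0043 over all genes. Over the 9 libraries, Spearman correlations between clock genes ran from -0.88 (Clock and Nr1d1) to 0.93 (Cry1 and Tef). The 10 genes are thus not independent of each other. No test over the list was run, here or for the comparisons below. There was no overlap between libraries for 4 clock genes, Per2, Cry1, Dbp and Tef, all lower in BGP, against 8.79% of genes lower without overlap. This share counts lower genes only, whereas those given for the other comparisons below count either direction. For Cry1 the highest BGP library, at 50.54 CPM, lay just under the lowest Control library, at 50.62 CPM. Of the 95% intervals of the 10 log2FC, 7 lay within -0.5 to 0.5, and those of Per3, Nr1d1 and Dbp reached below.

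For NaHPO4 versus Control, 469 of all tested genes were higher and 540 lower, or 777 higher and 413 lower when libraries were scaled by total counts alone. At an unadjusted p below 0.05 there were 5 clock genes, Per1, Per3, Cry1 and Tef with lower values in NaHPO4 and Nr1d2 with higher values, against 19.9% of all tested genes. The log2FC was again below 0 for 8 of 10, against 50% of all tested genes, with a median of -0.12 against 9.7e-05. Libraries did not overlap for 6 clock genes, of which Per1, Cry1, Cry2, Dbp and Tef were lower and Nr1d2 higher in NaHPO4, against 23.2% of genes in either direction. Here 8 of 10 intervals lay within -0.5 to 0.5.

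For BGP versus NaHPO4, 456 of all tested genes were higher and 280 lower in BGP, or 322 higher and 494 lower under scaling by total counts. Nr1d2 was the only clock gene whose libraries did not overlap, 1 of 10, against 21.2% of genes in either direction. Per1, Cry1 and Nr1d2 had an unadjusted p below 0.05, against 16.9% of all tested genes. The log2FC was below 0 for 5 of 10 clock genes, against 50.8%, with a median of -0.013 against -0.0018, and 9 of 10 intervals lay within -0.5 to 0.5.

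**Figure D3:**
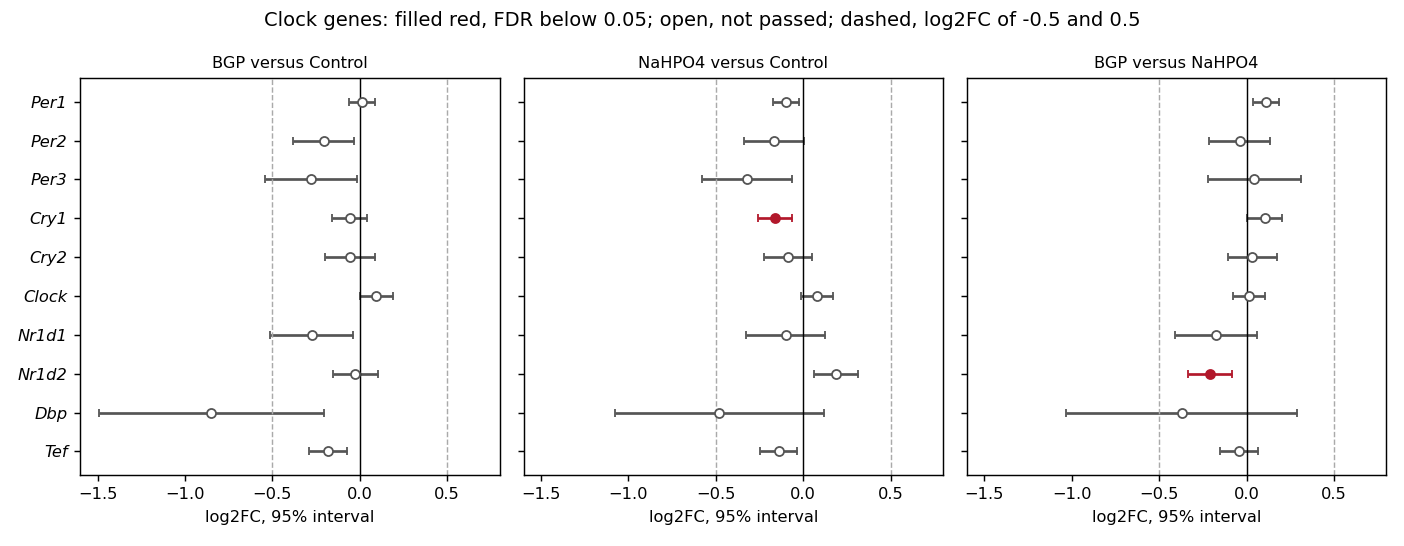
log2FC of each clock gene with its 95% interval in the 3 comparisons, where filled red points passed an FDR of 0.05 and open points did not, and dashed lines mark -0.5 and 0.5. Only Cry1 in NaHPO4 versus Control (-0.16) and Nr1d2 in BGP versus NaHPO4 (-0.21) are filled, and the interval of Dbp is the widest in all 3 panels.

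Cry1 encodes the cryptochrome that is the stronger repressor of CLOCK and BMAL1 and carries an E-box in its promoter above. Its level was 52.2, 50.6 and 50.6 CPM in Control, 46.9, 49.9 and 50.5 CPM in BGP and 44.4, 45.6 and 47.3 CPM in NaHPO4. All NaHPO4 libraries were below all Control libraries, and BGP lay between them and overlapped with NaHPO4. Cry1 fell by 10.6% in NaHPO4 (log2FC = -0.16, 95% interval -0.26 to -0.063, adjusted p = 0.0327). This call was near the threshold and was kept in 8 of 17 alternative analyses, with an adjusted p from 0.0300 to 0.145. It was lost without Control replicate 1 (adjusted p = 0.145), 2 (0.0577) or 3 (0.0654) and without NaHPO4 replicate 1 (0.116) or 2 (0.0952). It was also lost with DESeq2 (0.0582), limma (0.0569), scaling by total counts (0.0790) and no filter on low counts (0.0517). In BGP, Cry1 did not pass against Control (log2FC = -0.058, adjusted p = 0.673) or against NaHPO4 (log2FC = 0.10, adjusted p = 0.265).

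Cry2, the other cryptochrome gene, was at 29.4, 28.6 and 28.2 CPM in Control, 25.1, 26.0 and 31.8 CPM in BGP and 26.2, 27.4 and 27.5 CPM in NaHPO4. Its BGP libraries were the most spread of the 3 groups, with replicate 3 above and replicates 1 and 2 below every Control library. The log2FC was -0.054 for BGP (95% interval -0.20 to 0.088, adjusted p = 0.807) and -0.087 for NaHPO4 (95% interval -0.23 to 0.053, adjusted p = 0.540).

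Per1 was at 194, 189.1 and 196 CPM in Control, 199, 182.5 and 201 CPM in BGP and 184, 178 and 179 CPM in NaHPO4. All NaHPO4 libraries lay below those of Control, while the BGP libraries spanned them. The log2FC was 0.011 for BGP (95% interval -0.064 to 0.087, adjusted p = 0.933), -0.098 for NaHPO4 (95% interval -0.17 to -0.023, adjusted p = 0.108) and 0.11 for BGP versus NaHPO4 (adjusted p = 0.0796). Without BGP replicate 2, the lowest of its group, the last difference was 0.16 and passed (adjusted p = 0.0141).

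Per2, a period gene needed for a lasting rhythm, was at 17.6, 19.5 and 15.8 CPM in Control, 15.4, 14.5 and 15.8 CPM in BGP and 16.9, 14.6 and 15.6 CPM in NaHPO4. The highest BGP library, at 15.77 CPM, lay just under the lowest Control library, at 15.82 CPM. The log2FC was -0.21 for BGP (95% interval -0.38 to -0.032, adjusted p = 0.258) and -0.17 for NaHPO4 (95% interval -0.34 to 0.0030, adjusted p = 0.260). Without Control replicate 2, the highest library, these were -0.13 and -0.090, and with any 1 library left out they ranged from -0.28 to -0.13 and from -0.24 to -0.090.

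Per3, the period gene with D-boxes in its promoter above, was at 8.60, 8.74 and 6.50 CPM in Control, 6.41, 7.32 and 5.85 CPM in BGP and 6.62, 6.14 and 6.21 CPM in NaHPO4. Control replicate 3 was at the level of the treated libraries, and the groups overlapped in every comparison. The log2FC was -0.28 for BGP (95% interval -0.54 to -0.016, adjusted p = 0.334) and -0.32 for NaHPO4 (95% interval -0.58 to -0.065, adjusted p = 0.128). Without Control replicate 3 the difference for NaHPO4 was -0.46 and passed (adjusted p = 0.0296), while that for BGP did not.

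Clock, the activator, was at 81.6, 92.3 and 82.3 CPM in Control, 95.5, 88.6 and 89.4 CPM in BGP and 94.7, 87.1 and 89.1 CPM in NaHPO4. Its log2FC was 0.094 for BGP (95% interval 0.00033 to 0.19, adjusted p = 0.371) and 0.081 for NaHPO4 (95% interval -0.012 to 0.17, adjusted p = 0.337), and Control replicate 2 lay within the range of both treatments. Bmal1, the partner of Clock, is not among the 10 genes and was listed under its older name Arntl. It was at 76.8, 73.0 and 77.0 CPM in Control, 79.5, 78.2 and 83.8 CPM in BGP and 82.2, 76.9 and 81.2 CPM in NaHPO4. The log2FC of Bmal1 was 0.091 (adjusted p = 0.353) and 0.083 (adjusted p = 0.277), so neither partner of the activator pair passed the test.

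Nr1d2 encodes REV-ERBβ, a repressor of Bmal1. It was at 28.3, 26.9 and 27.7 CPM in Control, 24.9, 28.9 and 27.6 CPM in BGP and 31.2, 30.5 and 32.7 CPM in NaHPO4. Every NaHPO4 library was above every library of both other groups, and the BGP libraries spanned those of Control. Against NaHPO4, Nr1d2 was lower in BGP (log2FC = -0.21, 95% interval -0.34 to -0.084, adjusted p = 0.0370), whereas against Control it was 0.19 for NaHPO4 (95% interval 0.060 to 0.31, adjusted p = 0.0612) and -0.025 for BGP (95% interval -0.16 to 0.11, adjusted p = 0.918). The direct difference was kept in 11 of 17 alternatives, with an adjusted p from 0.0163 to 0.269. Without BGP replicate 1, the lowest library, it was -0.15 and did not pass (adjusted p = 0.269), and it was also lost without BGP replicate 3 (0.0736), without NaHPO4 replicate 1 (0.0567), 2 (0.0561) or 3 (0.161), and with DESeq2 (0.0690). The difference of NaHPO4 from Control passed under scaling by total counts (log2FC = 0.21, adjusted p = 0.0285) and with limma (adjusted p = 0.0485).

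Nr1d1 encodes REV-ERBα and was at 11.8, 10.9 and 11.4 CPM in Control, 7.80, 9.07 and 11.2 CPM in BGP and 8.95, 11.4 and 11.4 CPM in NaHPO4. Replicate 1 was the lowest library of both treated groups. The log2FC was -0.28 for BGP (95% interval -0.51 to -0.041, adjusted p = 0.264), or -0.16 without BGP replicate 1 (adjusted p = 0.684) and -0.43 without BGP replicate 3 (adjusted p = 0.0694), and -0.10 for NaHPO4 (95% interval -0.33 to 0.13, adjusted p = 0.695). Thra, with which Nr1d1 shares exon bases, fell by 0.13 in BGP (adjusted p = 0.0282) and fell by 0.16 in NaHPO4 (adjusted p = 0.00134) on the log2 scale, and its part in the Nr1d1 counts was not tested.

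Dbp, a direct target of CLOCK and BMAL1 and often among the most rhythmic genes of a tissue, was the least abundant clock gene, with 28, 33 and 38 counts in Control, 22, 16 and 15 in BGP and 28, 34 and 21 in NaHPO4. In CPM these were 1.31, 1.44 and 1.496 in Control, 0.992, 0.719 and 0.645 in BGP and 1.02, 1.19 and 0.820 in NaHPO4. All treated libraries were below all Control libraries. The log2FC of -0.85 for BGP was the farthest from 0 of any clock gene, but its 95% interval ran from -1.5 to -0.21 and the adjusted p was 0.185. For NaHPO4 the log2FC was -0.48 (95% interval -1.1 to 0.12, adjusted p = 0.391), and for BGP versus NaHPO4 it was -0.37 (95% interval -1.0 to 0.29, adjusted p = 0.634). At these counts a difference of this size was not called over all tested genes, and both intervals that involve NaHPO4 hold 0.

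Tef encodes the other PAR bZIP factor, and was far more abundant, with 90.8, 78.9 and 80.6 CPM in Control, 65.0, 77.4 and 77.7 CPM in BGP and 74.7, 75.1 and 77.0 CPM in NaHPO4. All treated libraries were below all Control libraries, with BGP replicate 1 the lowest and Control replicate 1 the highest of the 9. The log2FC for BGP was -0.18 (95% interval -0.29 to -0.074, adjusted p = 0.0584), the lowest adjusted p of the clock genes in that comparison. It passed with limma (0.0467), without a filter on low counts (0.00626), without Control replicate 2 (0.0368) and without BGP replicate 3 (0.0301). Without BGP replicate 1 it was -0.10 (adjusted p = 0.478), and without Control replicate 1 it was -0.12 (adjusted p = 0.421). For NaHPO4 the log2FC was -0.14 (95% interval -0.25 to -0.034, adjusted p = 0.106), which passed only without a filter on low counts (0.0420) and was -0.077 without Control replicate 1 (adjusted p = 0.552).

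A list of 22 other clock genes was examined, of which 19 passed the filter on low counts and were tested. In BGP versus Control 1 rose and 0 fell (2.53% of all tested genes passed), in NaHPO4 versus Control 2 rose and 0 fell (7.38%), and in BGP versus NaHPO4 2 were higher and 0 lower (5.38%). These counts are near the shares over all genes, with median log2FC of 0.068, 0.021 and 0.029. Bhlhe40, which encodes DEC1, a repressor that competes with CLOCK and BMAL1 for E-boxes, rose in both treatments. It was at 53.2, 59.3 and 58.8 CPM in Control, 81.5, 77.3 and 80.6 CPM in BGP and 67.5, 68.1 and 71.3 CPM in NaHPO4, with no overlap between any of the groups. The log2FC of Bhlhe40 was 0.48 for BGP (95% interval 0.39 to 0.58, adjusted p = 1.55e-09), 0.27 for NaHPO4 (95% interval 0.18 to 0.36, adjusted p = 9.15e-05) and 0.21 for BGP versus NaHPO4 (95% interval 0.12 to 0.30, adjusted p = 0.00212). Each of these passed in 17 of 17 alternatives. Its relative Bhlhe41, which encodes DEC2, was higher in BGP (24.1 ± 0.912 CPM, SD, n = 3) than in NaHPO4 (20.2 ± 1.08 CPM, log2FC = 0.25, adjusted p = 0.0309), while neither treatment passed against Control (22.97 ± 2.21 CPM, adjusted p = 0.751 for BGP and 0.130 for NaHPO4, the latter 0.0462 without Control replicate 1). Bhlhe41 kept the direct call in 11 of 17 alternatives and lost it without BGP replicate 1 (adjusted p = 0.0978) or 2 (0.133), without NaHPO4 replicate 1 (0.0562) or 3 (0.152), with DESeq2 (0.0544) and under scaling by total counts (0.0571). Timeless, whose protein acts mostly in DNA replication in mammals, rose from 17.8 ± 1.35 to 22.03 ± 1.59 CPM in NaHPO4 (log2FC = 0.30, adjusted p = 0.00991), and did not pass without Control replicate 2 (0.24, adjusted p = 0.0814) or NaHPO4 replicate 3 (0.26, adjusted p = 0.0645). Of the 10 genes for kinases, ubiquitin ligase subunits and a phosphatase that act on PER and CRY proteins, 0 passed in each comparison by edgeR, DESeq2 or limma, and 3, 3 and 2 had an unadjusted p below 0.05, against 13.4%, 19.9% and 16.9% of all tested genes. Rora, which encodes a ROR activator, had a log2FC of 0.024 for BGP (adjusted p = 0.855) and 0.11 for NaHPO4 (adjusted p = 0.0622), and the latter passed with limma.

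**Figure D4:**
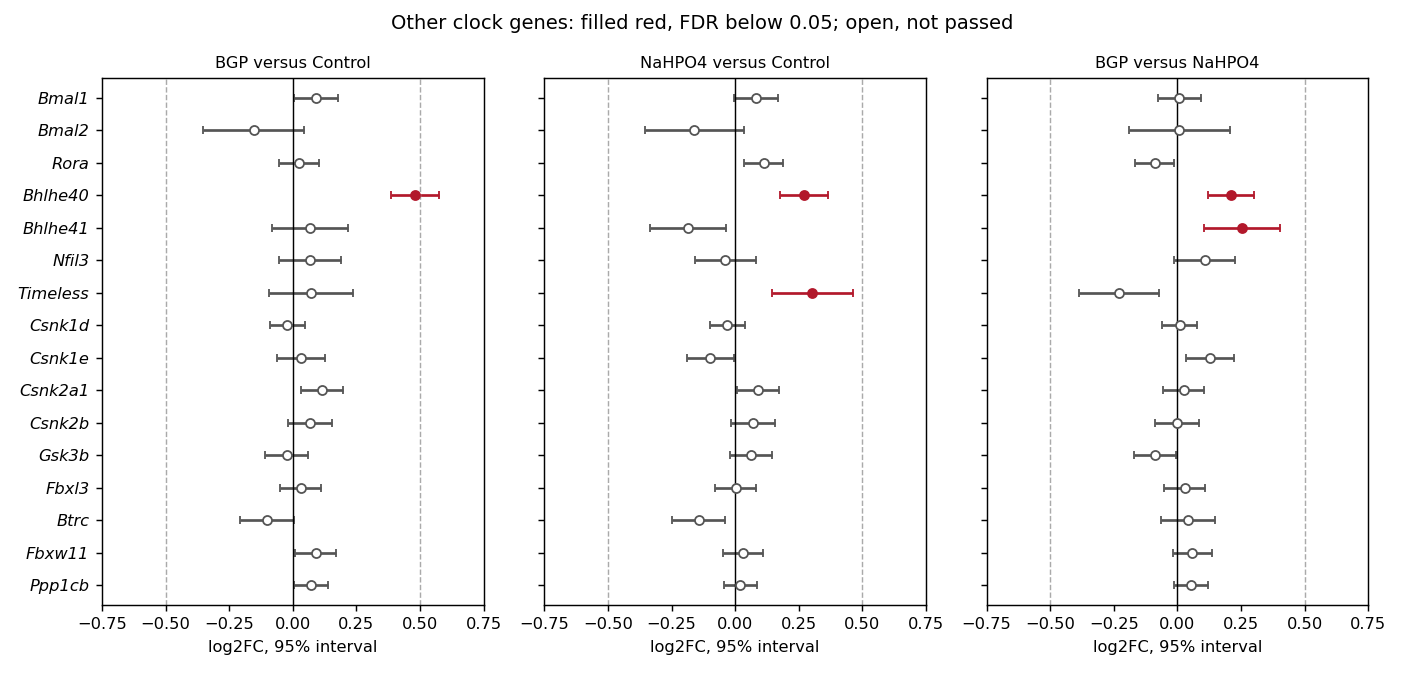
log2FC with 95% intervals of 16 other clock genes in the 3 comparisons, where filled red points passed an FDR of 0.05, and Npas2, Ciart and Fbxl21 are left out because their low counts give wide intervals. Bhlhe40 is filled in all 3 panels (0.48, 0.27 and 0.21), Timeless in NaHPO4 versus Control and Bhlhe41 in BGP versus NaHPO4, and all other points are open.

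Of 8 clock output genes on the list, among them Nampt, Wee1, Usp2 and Pdk4, 0 passed in each of the 3 comparisons by edgeR's quasi-likelihood test, DESeq2 or limma, and 0, 2 (Nampt and Por) and 1 (Pdk4) had an unadjusted p below 0.05, against the same 13.4%, 19.9% and 16.9%. Genes that respond to glucocorticoids and to cAMP were listed because both signals act on the clock, and Per1 belongs to both lists. Of 16 glucocorticoid response genes tested of 18 listed, 3 rose and 3 fell in BGP (2.53% of all tested genes passed), 0 rose and 6 fell in NaHPO4 (7.38%, 3.95% lower), and 4 were higher and 1 lower in BGP than in NaHPO4 (5.38%). Sgk1, Mt2 and Errfi1 rose in BGP, Cebpb and Ddit4 fell in both treatments, Cebpd fell in BGP, and Errfi1, Dusp1, Mt1 and Tsc22d3 fell in NaHPO4. The call of Sgk1 was lost without any 1 of 5 libraries (Control replicates 2 and 3 and all of BGP, adjusted p from 0.0531 to 0.121) and that of Ddit4 in BGP without any 1 of 5 (Control replicates 2 and 3, BGP replicates 1 and 3 and NaHPO4 replicate 2, 0.0624 to 0.252). In NaHPO4, Ddit4 was lost without Control replicate 3 (0.112) or NaHPO4 replicate 1 (0.0692) or 2 (0.0570), Mt1 without Control replicate 1 (0.165) or NaHPO4 replicate 1 (0.111) and with DESeq2 (0.176), and Dusp1 without Control replicate 1 (0.0772). Fkbp5 and Tsc22d3, widely used readouts of the glucocorticoid receptor, had a log2FC of 0.025 (adjusted p = 0.797) and -0.020 (adjusted p = 0.853) in BGP, while in NaHPO4 that of Fkbp5 was -0.011 (adjusted p = 0.897) and Tsc22d3 fell by 0.10 on the log2 scale (adjusted p = 0.0328), a call lost with limma. Of 11 cAMP and CREB response genes tested of 14 listed, 1 rose in BGP (2.53% of all tested genes passed), 2 fell in NaHPO4 (3.95% lower) and 2 were higher in BGP than in NaHPO4 (5.38% in either direction). These were Nr4a1, an immediate early nuclear receptor gene, at 18.0 ± 2.02 CPM in Control, 23.8 ± 3.07 CPM in BGP and 13.0 ± 0.213 CPM in NaHPO4, and Fos, at 5.38 ± 0.299, 5.92 ± 0.582 and 3.94 ± 0.429 CPM. The rise of Nr4a1 in BGP (log2FC = 0.40) did not pass without Control replicate 2 (0.32, adjusted p = 0.0659) or BGP replicate 1 (0.29, adjusted p = 0.122). The fall of Fos in NaHPO4 (adjusted p = 0.0485) was at the threshold and kept in 4 of 17 alternatives, with every library left out but NaHPO4 replicate 1 ending the call (adjusted p up to 0.206). Per1, at a log2FC of 0.11 between BGP and NaHPO4, did not pass with them.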

How the data were processed

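The data are 9 poly(A) RNA libraries of MC3T3-E1 cells, 3 each of Control, BGP and NaHPO4, with groups and replicate numbers taken from the sample labels. The authors deposited a table of whole-number read counts per Ensembl gene, not normalized, and a signal table, in which the counts of a library are all multiplied by its own TMM factor (1.01 to 1.32). They checked the reads with FastQC and mapped them with the AIR software to GRCm39 (Ensembl release 104). The kit was stranded, and the aligner, the counting program and its strand setting are not given in the sources used here. Each table has 55416 genes and 0 columns of other samples.

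From the counts, 13679 genes passed filterByExpr of edgeR 4.0.16 (count minimum 10). Libraries were scaled by TMM, and 1 model with a coefficient per group (glmQLFit, all 9 libraries) gave the 3 comparisons (glmQLFTest), with Benjamini-Hochberg adjustment over those genes. Standard errors of log2FC came from the F statistic. Under scaling by total counts, median log2FC over all genes moved from 9.7e-05 to 0.025 for NaHPO4 versus Control. For BGP versus NaHPO4 it moved from -0.0018 to -0.029, and for BGP versus Control from -0.0043 to -0.0070. With that scaling the only clock gene called in NaHPO4 versus Control was Nr1d2, not Cry1. CPM are TMM-normalized, RPKM use the exon bases of a later GENCODE annotation of GRCm39, and errors are SDs over 3 libraries. The signal table gave the gene symbols, and its values were used only for limma 3.58.1 on log2(value + 1). This was an alternative beside DESeq2 1.42.0, other scalings and filters, each library left out, a replicate block and an FDR of 0.01. The procedure was tested on simulated data, in which changes were planted only in genes with more counts than Dbp. The planted changes were all larger than those of Cry1 and Nr1d2, so that test does not show how well such changes are called. R 4.3.3 and Python 3.11.15 were used.

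The 10 clock genes and the gene lists were chosen with earlier results of these data known. Besides the 10, Bmal1 was named always, up to 8 genes per clock, glucocorticoid and cAMP list that passed in a comparison were named, with Runx2, Sp7, Alpl, Bglap, Dmp1 and any marker of another cell type above 10 CPM. Genes with the pattern most like a clock gene were to be named for clock genes that were DEGs, and there were 0 of these. Fkbp5, Tsc22d3, Rora, Thra, the genes without counts and the output genes named fall outside this rule and were chosen after their values were seen. At 21390839 to 28234404 counts per library, a gene with 10 counts lies below 1 CPM, and the precision of Dbp, with 15 to 38 counts, is limited by counting. Chi-square tests of the counts of 2 replicates gave 2.61 to 4.85 per degree of freedom, above sampling noise, so no 2 libraries were counted as 1 sample, which does not show that they were separate cultures.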

Additional observations from a re-analysis of the deposited data

Results flagged for a closer look

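The effects of BGP and NaHPO4, both taken against the same Control libraries, were compared directly by edgeR's quasi-likelihood test of BGP against NaHPO4, with Benjamini-Hochberg adjustment over all tested genes. Of the clock genes, the effects differed for Nr1d2 by -0.21 on the log2 scale (adjusted p = 0.0370). Of the other clock genes, they differed for Bhlhe40 by 0.21 (adjusted p = 0.00212) and for Bhlhe41 by 0.25 (adjusted p = 0.0309). For Nr1d2 and Bhlhe41 neither treatment passed against Control. Both of these differences were kept in 11 of 17 alternatives and were lost with DESeq2, among others.

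Among the glucocorticoid response genes, the effects differed for Errfi1, an inhibitor of EGF receptor signalling, by 0.42 (adjusted p = 6.44e-11). Errfi1 rose in BGP (log2FC = 0.17, adjusted p = 0.00246) and fell by 0.25 on the log2 scale in NaHPO4 (adjusted p = 3.53e-06). They differed for Dusp1, a phosphatase of MAP kinases, by 0.32 (adjusted p = 0.0118), for the metallothionein genes Mt1 by 0.19 (adjusted p = 0.00335) and Mt2 by 0.13 (adjusted p = 0.0239), and for Cebpd, a bZIP transcription factor gene, by -0.21 (adjusted p = 0.0224).

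Among the cAMP and CREB response genes, the effects differed for Nr4a1 by 0.87 (adjusted p = 7.12e-09), which rose in BGP (log2FC = 0.40, adjusted p = 0.00419) and fell by 0.47 on the log2 scale in NaHPO4 (adjusted p = 0.000493), and for Fos by 0.59 (adjusted p = 0.00764). Of these differences, those of Bhlhe40, Errfi1 and Nr4a1 passed in 17 of 17 alternatives, whereas that of Fos did not pass without BGP replicate 1 (adjusted p = 0.0793) or NaHPO4 replicate 2 (0.0643). That of Dusp1 did not pass without BGP replicate 3 (0.0510) or NaHPO4 replicate 3 (0.0537), that of Mt1 without BGP replicate 3 (0.0537) or with DESeq2 (0.0791), that of Cebpd without BGP replicate 2 (0.0731) or 3 (0.181) or NaHPO4 replicate 2 (0.0607) or 3 (0.234), and that of Mt2 without BGP replicate 2 (0.193) or 3 (0.0825) or NaHPO4 replicate 1 (0.0838) or 2 (0.108), under scaling by total counts (0.101) or with limma (0.0517). Groups of 3 libraries were not tested for outlying libraries.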

How the results depend on the processing

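The correlation of deviations of same-numbered libraries lay between -0.0092 and 0.043 in 9 pairs. Control with NaHPO4 gave 0.030, 0.043 and 0.041 for replicates 1, 2 and 3, against -0.046 to 0.0022 for libraries of different numbers. Values this small do not settle whether the replicate numbers pair the libraries. The labels do not say so, and the main model used no pairs. With the replicate number as a block, 351, 996 and 749 genes passed for BGP versus Control, NaHPO4 versus Control and BGP versus NaHPO4, against 346, 1009 and 736 without it, and 0, 1 (Cry1) and 1 (Nr1d2) of the clock genes, as without it.

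At an FDR of 0.01, 178, 568 and 408 genes passed, and 0, 0 and 0 clock genes. For BGP versus Control, 1 clock gene (Tef) passed with no filter on low counts and with limma, and with DESeq2 the clock gene counts were 0 in all 3 comparisons. With each library left out, the genes passed numbered 202 to 406, 650 to 992 and 478 to 769. The lowest counts were those without BGP replicate 1 (202 and 478) and without Control replicate 1 (650), and those without Control replicate 1 (218) or BGP replicate 2 (221) were also more than 1.5 times lower for BGP versus Control. The clock genes passed numbered 0 to 1, 0 to 1 and 0 to 2.

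For BGP versus NaHPO4, the log2FC of Clock (0.014) was -0.013 under scaling by total counts and -0.0017 with limma, and that of Bmal1 (0.0079) was -0.019 and -0.0085. With a library left out, values that did not pass and crossed 0 were, for BGP versus Control, those of Bhlhe41 (-0.0017 to 0.13), Per1 (-0.014 to 0.057), Cry2 (-0.17 to 0.0094) and Nr1d2 (-0.070 to 0.032), for NaHPO4 versus Control that of Nr1d1 (-0.16 to 0.0085), and for BGP versus NaHPO4 those of Clock (-0.020 to 0.049), Bmal1 (-0.022 to 0.031), Tef (-0.087 to 0.037), Per3 (-0.044 to 0.12), Cry2 (-0.082 to 0.096) and Per2 (-0.089 to 0.017). For BGP versus Control, the values of Cry2 (0.0094) and Nr1d2 (0.032) above 0 came without BGP replicate 1. So did those of Tef (0.037) and Clock (-0.020) for BGP versus NaHPO4. The cause was not tested. With 3 libraries per group the differences of Cry1, Nr1d2 and Tef lie near the threshold of the test, and for Dbp the counts limit the precision further.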
